A study of Bos taurus with 16 samples.

Results

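Genes of blood platelets and of clotting were examined in the blood of dairy cows: F13A1, THBS1, PF4, PPBP, ITGA2B, ITGB3, GP1BB and TREML1. The members were all array probes that carry these symbols, 20 of 43653 probes, and they covered 7 of the 8 genes because GP1BB had no probe under its symbol. Expression was measured in whole blood of lactating Holstein Friesian cows on 16 one-colour Agilent arrays, 4 arrays for each of 4 RNA pools. The pools were blood before supplementation (day 0), blood after 60 days of an oral probiotic pack (probiotic), blood at day 60 of cows given water only (untreated), and day 60 blood of the probiotic cows treated outside the body with 100 ng/ml lipopolysaccharide (LPS), a component of bacterial cell walls. The pack held Saccharomyces cerevisiae yeast culture with fermentation products of Enterococcus faecium, Lactobacillus acidophilus, Bacillus subtilis and the mould Aspergillus oryzae, on rice hulls, chicory root and calcium carbonate. Each arm had 5 cows, all blood was drawn into an acid citrate dextrose anticoagulant and held for 30 min at 37 °C in 5% CO2, and RNA was taken with a kit that lyses red and white cells separately. The day 0 labels carry the same code (MP) as the probiotic cows, and whether control cows entered that pool is not given in the sources used here. RNA of a group was pooled before labelling, so the p-values below reflect how far repeat arrays of the same RNA differ, not how far cows differ.

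Platelets are small fragments shed by megakaryocytes, and they carry a share of the RNA of those cells. At a vessel wound they stick through the glycoprotein Ib complex, of which GP1BB is a chain, and bind one another through the fibrinogen receptor, the integrin made of ITGA2B and ITGB3. Their granules release the chemokines PF4 and PPBP and the adhesive protein THBS1 (thrombospondin), and TREML1 lies in the granule membrane until activation. F13A1 is the catalytic subunit of factor XIII, the enzyme that links fibrin strands of a clot to each other, and monocytes and macrophages make it as well as megakaryocytes. Most other clotting factors are made by the liver. In whole blood, fewer cells of a type and less RNA per cell cannot be told apart.

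The arrays differed in brightness. A spot is called well above background by the scanner software when its signal clearly exceeds that of its surroundings. Such spots made up 26.4 to 37.1% of spots on the probiotic arrays, 22.5 to 42.1% on those with LPS, 8.26 to 23.0% on the day 0 arrays and 12.002 to 17.9% on the untreated arrays. Replicate 4 was the lowest array of its pool on day 0, with LPS and in the probiotic pool. These arrays moved several results below and are not named in every case. The 4 arrays of a pool shared a slide that held no other pool, and therefore slide and pool cannot be told apart. Only the probiotic and LPS arrays shared a scan day. With 4 arrays per pool, their number limits the precision.

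The probes carried 60 bases each, with a GC content from 35% to 60%, and no 2 probes of a gene overlapped at their ends. Their sequences are shown for the genes on which the results turn, since probes of the same gene read very differently. The 5 probes of F13A1 are given first, then the brightest probe of each other gene, from the sequence column of the authors' deposited averages. They are written 5′ to 3′, whole for 5 probes and as the first 30 bases for the rest.
F13A1 A_73_P311426 (first 30 bases): ctcagttctaaaatgaaatgcattttgctg
F13A1 A_73_P126951 (first 30 bases): tagagacagaataaacccaacaagttggag
F13A1 A_73_113303 (first 30 bases): aaagtcatcatttatcatctcaaatggctg
F13A1 A_73_101063: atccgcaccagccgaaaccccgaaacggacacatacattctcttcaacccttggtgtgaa
F13A1 A_73_P062981: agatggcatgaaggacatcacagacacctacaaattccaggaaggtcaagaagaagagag
THBS1 A_73_P079736: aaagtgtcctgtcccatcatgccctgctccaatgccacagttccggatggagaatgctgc
PPBP A_73_117476 (first 30 bases): ctagggtgtaagacagtctcaaggatgtat
PF4 A_73_P046226: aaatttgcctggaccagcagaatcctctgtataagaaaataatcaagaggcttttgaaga
ITGA2B A_73_120486 (first 30 bases): gcccacacatctctgtcctgcagcaaggct
ITGB3 A_73_P101986 (first 30 bases): tgcctccaccaccatggattatccttcctt
TREML1 A_73_120826: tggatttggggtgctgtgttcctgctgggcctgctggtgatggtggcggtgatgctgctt

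Of the 20 probes, 7 were well above background on all 4 arrays of at least 1 pool and entered the tests. They were 3 of the 5 F13A1 probes and 1 probe each of THBS1, PPBP, ITGA2B and TREML1. THBS1 A_73_P079736 was the single member probe above background on all 16 arrays. PF4 and ITGB3 had no probe that passed this filter. A probe that passed the filter only through 1 pool was selected for being bright there. The filter thus favours a difference from a pool in which the probe was dim. The members that passed are therefore not a sample of all members.

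**Figure D1:**
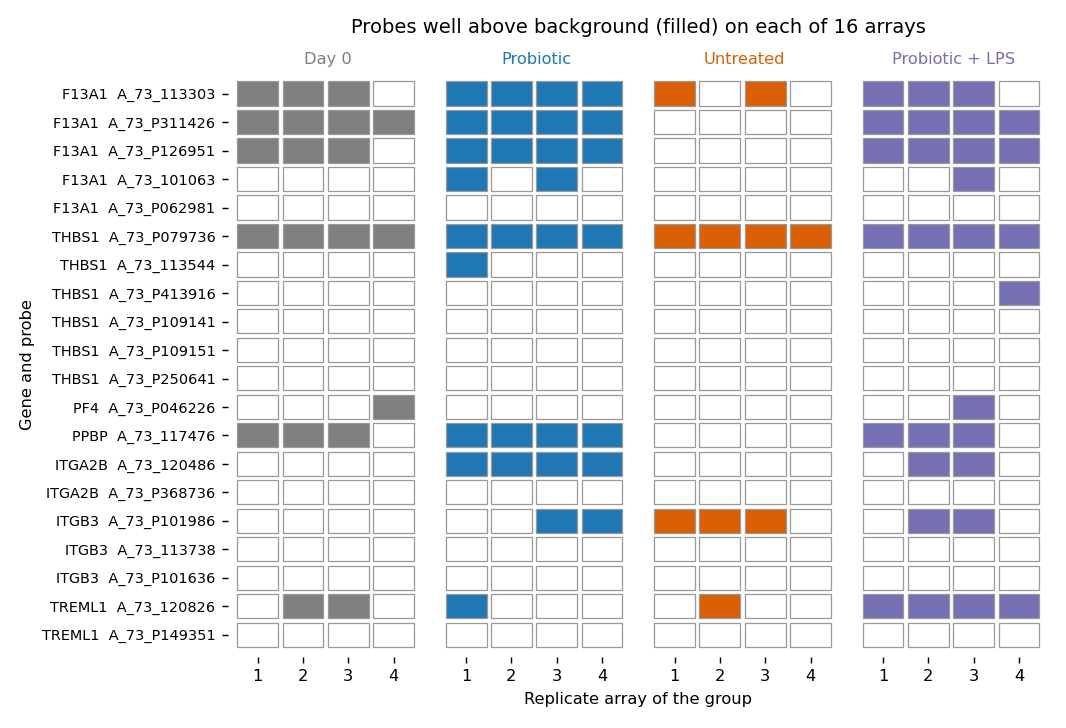
Probes (rows) of the 7 measured genes on the 16 arrays (columns, 4 per pool), with a filled cell where the scanner software called the spot well above background. THBS1 A_73_P079736 is filled on all 16 arrays, F13A1 A_73_P311426 on 12 arrays and on 0 untreated arrays, and 8 of the 20 probes have no filled cell.

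F13A1, the fibrin-linking enzyme, was seen in 3 of the 4 pools by its probe A_73_P311426. Net signal, the spot after subtraction of its background in scanner units, was 18218, 18027, 18242 and 16150 on the 4 probiotic arrays and 16149, 18662, 18251 and 2374 on those with LPS. It was 4019, 4378, 4430 and 1075 on the day 0 arrays and -10.6, 4.69, -15.8 and -16.8 on the untreated arrays. The signal was thus strong on every array of the 3 other pools, with replicate 4 of day 0 and of LPS below the rest of their pools, and at background on every untreated array. On the 12 bright arrays the probe lay at a percentile from 99.1 to 99.4 of its array.

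The second F13A1 probe, A_73_P126951, showed a similar order of pools. Its net signal was 2498, 2157, 2397 and 1349 on the probiotic arrays and 1954, 2515, 2108 and 51.9 on those with LPS. On day 0 it was 561, 478, 473 and 16.9, and on the untreated arrays 61.1, 11.6, 51.5 and -15.8, none of these 4 well above background. Replicate 4 of day 0 and replicate 4 of LPS again lay far below their pools, the former not above background.

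The probe A_73_113303 of F13A1 did not share that pattern. It read 472, 453, 448 and 396 on the probiotic arrays, 415, 431, 481 and 14.4 on those with LPS, and 100.3, 99.3, 83.7 and 0.44 on day 0. On the untreated arrays it read 251, -14.3, 375 and 101, with replicates 1 and 3 well above background. The untreated pool therefore held both bright and dim readings of this probe, which overlapped those of the other pools. On untreated replicate 2 the spots around it were also dim, with a median 3.54 below the other 3 untreated arrays on the log2 scale against 3.75 for the probe itself. On replicates 1 and 3 the surrounding spots were bright in turn, 2.07 and 2.35 above the other arrays, with 18 of 23 over 2-fold on each.

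Another F13A1 probe, A_73_101063, was above background on 3 of 16 arrays and jumped to 1814 on probiotic replicate 1 while the other 3 probiotic arrays read 42.1, 64.1 and 21.3. The last, A_73_P062981, was dim on all 16 arrays, with net signals from -37.1 to 24.7. The 5 probes of F13A1 thus differed in the arrays on which they were detected.

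THBS1, a granule protein that bridges platelets and matrix, was measured by A_73_P079736 on every array. Net signal was 384, 383, 406 and 233 on the probiotic arrays and 457, 263, 558 and 654 on the untreated arrays. It was 175, 189, 158 and 46.5 on day 0 and 373, 297, 279 and 149 on the LPS arrays. The raw signals of the probiotic and untreated pools overlapped, and those of day 0 lay below both.

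The order of the THBS1 pools changed once each array was scaled to its own brightness. The scaled level is the log2 signal minus the array's 75th percentile over the 671 probes well above background on all 16 arrays. It was -1.40 ± 0.67 (SD, n = 4) in the untreated pool, -4.03 ± 0.09 on day 0, -4.71 ± 0.79 with LPS and -4.87 ± 0.10 in the probiotic pool. Day 0, LPS and probiotic thus lay close together and the untreated pool apart. LPS replicate 4, at -3.59, lay above the other LPS arrays, at -5.30 to -4.72. The other 5 THBS1 probes were dim on nearly all arrays: A_73_113544 was above background on probiotic replicate 1 (242) and A_73_P413916 on LPS replicate 4 (65.1), each on 1 array, and A_73_P109141, A_73_P109151 and A_73_P250641 on 0.

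PPBP, the precursor of a neutrophil-attracting chemokine of platelet granules, had 1 probe. Its net signal was 411, 377, 480 and 324 on the probiotic arrays and 573, 643, 658 and 25.8 on those with LPS. It was 153, 157, 143 and 14.0 on day 0 and -6.56, 3.04, 56.9 and -49.4 on the untreated arrays. The probe was above background on all probiotic arrays, on 3 of 4 LPS and day 0 arrays, with replicate 4 as the exception in both, and on 0 untreated arrays.

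PF4, the other granule chemokine, lies next to PPBP in the genome, with 0 genes between them in the RefSeq gene table of another assembly (ARS-UCD2.0). Its probe behaved differently. Net signal stayed between -5.81 and 38.8 on 15 arrays and reached 2379 on LPS replicate 3. The other LPS arrays read 9.996, 5.43 and 33.8. PF4 was above background on that array and on day 0 replicate 4 (38.8), and was not tested.

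ITGA2B, the alpha chain of the fibrinogen receptor, was above background on all probiotic arrays by A_73_120486, with net signals of 266, 201, 246 and 83.0. It read 25.1, 105, 78.6 and 12.9 on the LPS arrays, 102, 31.5, 24.2 and 59.7 on the untreated arrays and -4.69, 5.81, 5.82 and 3.102 on day 0. No day 0 or untreated array was well above background, and 2 LPS arrays were. Its other probe, A_73_P368736, was dim on all 16 arrays.

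ITGB3, the beta chain of the same receptor, went another way. By A_73_P101986 the untreated arrays read 131, 96.9, 102 and 80.2, and 3 of the 4 were above background. The probiotic arrays read 41.6, 30.8, 41.7 and 176, the LPS arrays 22.3, 92.1, 66.7 and 33.2, and the day 0 arrays 14.0, 3.00, 8.26 and 14.2. The untreated pool was thus the most even, and probiotic replicate 4 lay apart from its pool. This probe was above background on 7 arrays, on no pool's full set of 4, and the probes A_73_113738 and A_73_P101636 on 0.

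TREML1, the granule membrane receptor, gave single bright arrays by A_73_120826. The probiotic arrays read 836, -3.17, 1.62 and 5.70, and the untreated arrays -54.6, 856, 46.4 and -56.0. The LPS arrays read 863, 290, 237 and 603, and the day 0 arrays 22.2, 90.5, 67.9 and 14.1. All LPS arrays were above background, as were 2 day 0 arrays, but in the probiotic and untreated pools a lone array of 4 carried the signal. The probe A_73_P149351 was dim on all arrays.

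**Figure D2:**
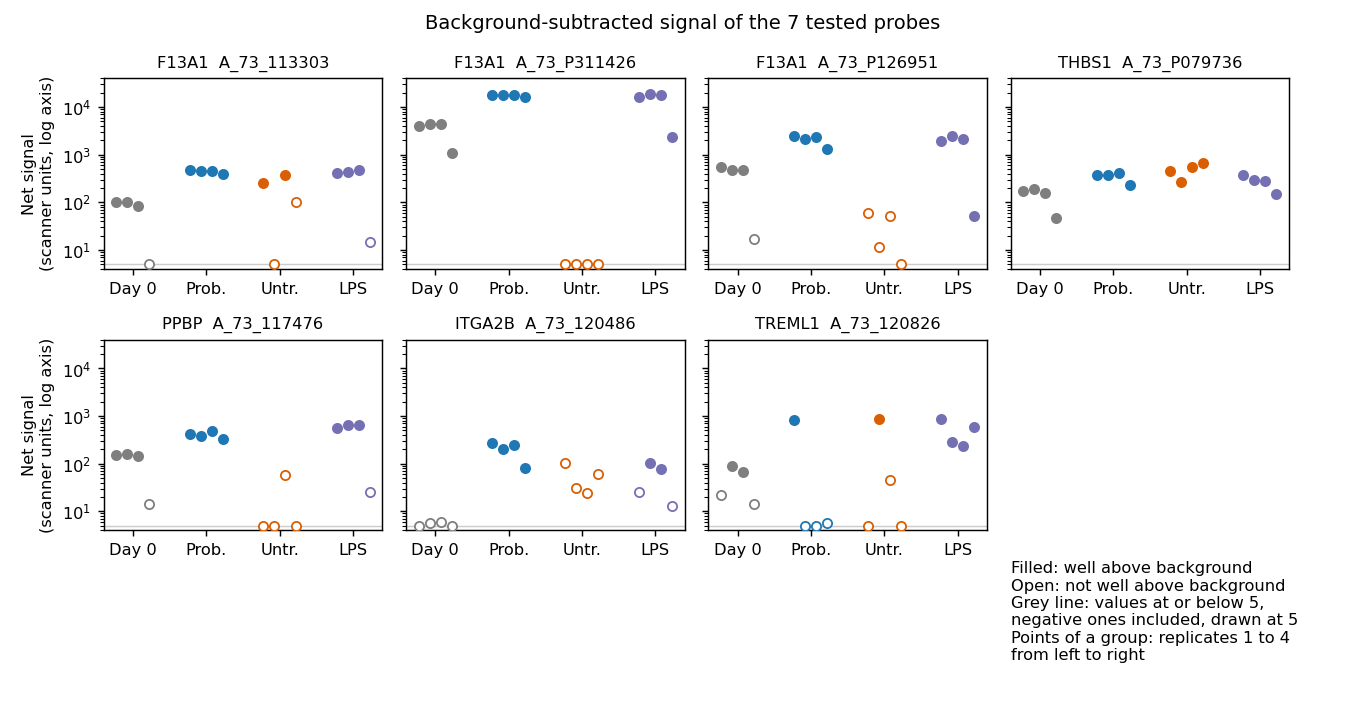
Net signal in scanner units (log axis) of the 7 tested probes on the 4 arrays of each pool, filled where well above background and open where not, with values at or below 5 drawn at 5. F13A1 A_73_P311426 reads 1075 or more on the 12 arrays of 3 pools and at background on the 4 untreated arrays, and THBS1 A_73_P079736 overlaps between the probiotic and untreated pools.

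Probiotic against untreated blood at day 60 asks how expression differed with the supplement. F13A1 was higher in the probiotic pool by 2 probes, and THBS1 was lower on the scaled levels. TREML1 passed with a single array above background in each pool, so its value rests largely on the surrogates that the software gives to dim spots, while PPBP, ITGA2B and the third F13A1 probe did not pass. To pass, a probe needed a limma p under 0.05 after Benjamini-Hochberg adjustment and a fold of at least 2. Of the 7 member probes tested, 2 passed higher, against 24% of the 12197 probes tested, and 2 passed lower, against 35.2% of them. In all, 59.2% of probes passed in this comparison, so a member that passed does not stand out by that. The median difference was -1.05 over the 7 member probes and -0.29 over all probes tested.

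F13A1 A_73_P311426 was at least 21.3-fold higher in the probiotic pool, a bound set by the faintest signal called above background on the untreated arrays. The fitted difference was 6.73 ± 0.30 on the log2 scale (SE, n = 4 arrays per pool, limma adjusted p = 1.44e-09), with the 4 probiotic arrays all above the 4 untreated arrays. The bound depends on the scaling and ran from 7.19-fold with cyclic loess to 290-fold with scaling to the median. Of all probes tested, 27 (0.221%) had a difference as large or larger. The pattern of detection itself was common: 862 probes (7.07% of those tested) were above background on all 12 arrays of the other pools and on 0 untreated arrays.

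F13A1 A_73_P126951 was at least 2.47-fold higher in the probiotic pool (fitted 2.87 ± 0.78, limma adjusted p = 0.00508). It lost the call with cyclic loess (0.36) and with normexp background correction (0.93). F13A1 A_73_113303 differed by -1.05 ± 0.87 and did not pass (limma adjusted p = 0.307). It passed lower without untreated replicate 2 (-2.06, limma adjusted p = 0.0168), with normexp (-1.64) and with cyclic loess (-2.41). Its value turned to 2.71 when arrays were scaled to the median, so the probes of F13A1 disagreed in sign under the scaling used and shared it under that alternative.

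THBS1 A_73_P079736 was lower in the probiotic pool, with a log2 difference of -3.47 ± 0.41 (limma adjusted p = 6.18e-06). It passed in all 8 fits that omitted an array of these pools, but it turned to 0.30 and did not pass when arrays were scaled to the median. The 671 probes above background on every array, of which THBS1 A_73_P079736 is one, had a median of -1.23 in this comparison, with 338 lower and 118 higher. TREML1 A_73_120826 stood at -4.37 ± 1.41 (limma adjusted p = 0.0146), with 1 of 4 arrays above background in each pool and overlapping arrays. Under this scaling the surrogates themselves lay lower in the probiotic pool. THBS1 A_73_P109141, dim on every array, had mean scaled levels of -10.1 in the probiotic and -5.91 in the untreated pool. The TREML1 call can therefore not be read as lower expression. The mean net signals of TREML1 A_73_120826 were 210 in the probiotic and 198 in the untreated pool. Without untreated replicate 2 this TREML1 probe no longer passed (-3.23, limma adjusted p = 0.0558), nor with scaling over all probes (-2.51 by the 75th percentile, -0.60 by the median) or quantile normalization (-1.27).

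PPBP differed by 0.81 ± 0.55 and did not pass (limma adjusted p = 0.218). It was above background on all probiotic and 0 untreated arrays, but the faintest signal called above background on the untreated arrays lay, once scaled, above its probiotic level, so no bound on a fold can be given. It passed higher in the probiotic pool under 4 alternatives, by 2.67 and 4.58 with scaling over all probes by the 75th percentile and the median, by 3.38 with quantile normalization and by 2.21 with scaling within bands of array rows. The PPBP probe, like the ITGA2B probe, entered the tests through the probiotic pool alone. The filter thus favoured a higher value there, and the PPBP calls are not independent of it. The untreated values of PPBP also rest largely on surrogates for dim spots. ITGA2B differed by -1.08 ± 0.60 (limma adjusted p = 0.130). It passed lower with normexp (-1.90) and higher with scaling to the median (2.68).

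**Figure D3:**
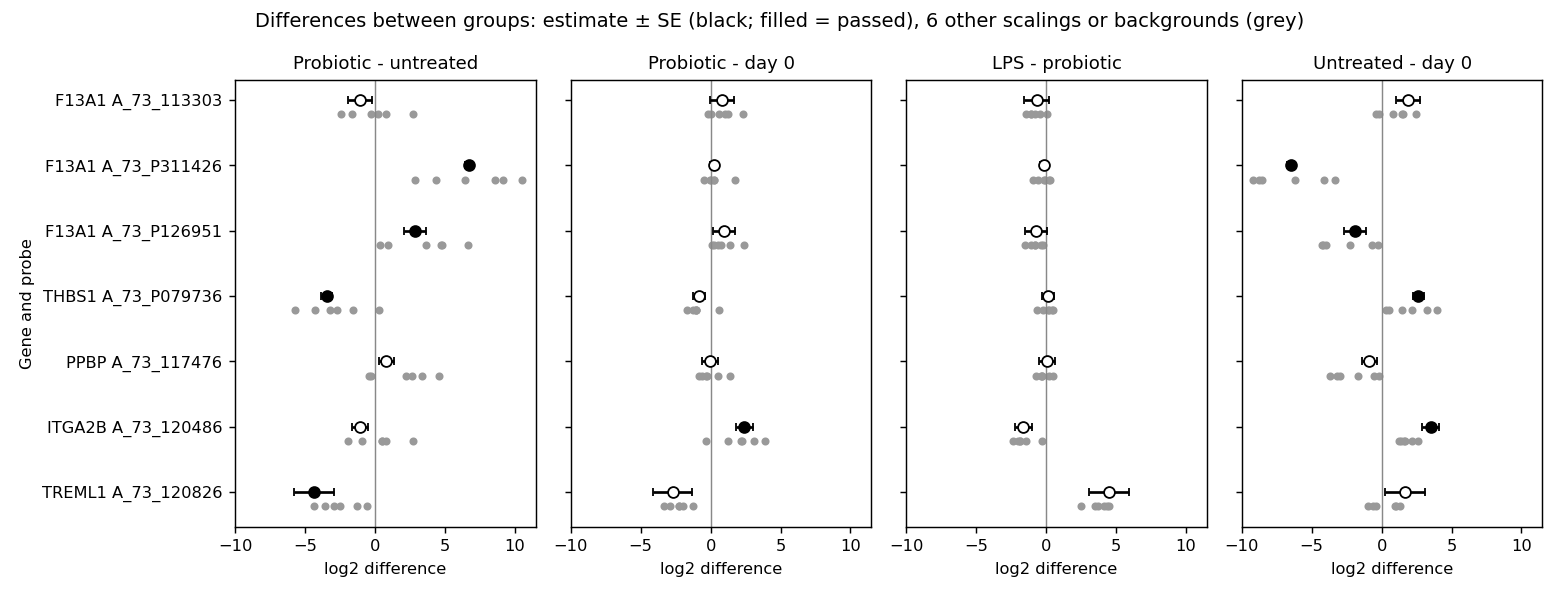
Log2 difference of each tested probe in the 4 comparisons, estimate ± SE in black (filled where it passed) and the values under 6 other scalings or backgrounds in grey. F13A1 A_73_P311426 stays on the same side of 0 in both comparisons with the untreated pool, from 2.85 to 10.49 for probiotic minus untreated. In probiotic minus untreated, THBS1 A_73_P079736, ITGA2B A_73_120486 and F13A1 A_73_113303 are among the probes with grey points on both sides of 0.

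Untreated blood at day 60 against day 0 sets the cows given water against the start of the study. F13A1 was lower in the untreated pool by 2 probes and THBS1 was higher. Of the 7 member probes, 2 passed higher, against 40.1% of probes tested, and 2 passed lower, against 16.1%, with 56.2% passing in either direction. This comparison shares the untreated arrays with the one above, so its values stand beside those and are not a second test of them. F13A1 A_73_P311426 was at least 18.0-fold lower (fitted -6.49 ± 0.30, limma adjusted p = 3.00e-09), with bounds from 9.99-fold to 87.8-fold over the other scalings. F13A1 A_73_P126951 was at least 1.28-fold lower (fitted -1.93 ± 0.78, limma adjusted p = 0.0451, 3 of 4 day 0 arrays above background), and this call held in 3 of 8 cases with an array left out (adjusted p up to 0.132). Over the 8 cases the value ran from -2.69 to -1.50, and day 0 replicate 4 was the array of that pool not above background.

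THBS1 A_73_P079736 was higher in the untreated pool than on day 0 by 2.63 ± 0.41 (limma adjusted p = 7.57e-05). It no longer passed with scaling over all probes by the 75th percentile (0.54) or the median (0.34). ITGA2B passed at 3.50 ± 0.60, but its probe was dim on all arrays of both pools, and no fold is given. It turned to -1.93 on the detrended signal as deposited. PPBP was -0.87 ± 0.55 and did not pass (limma adjusted p = 0.193), and it passed lower with scaling over all probes (-2.95 and -3.15) and quantile normalization (-3.72). TREML1 at 1.66 ± 1.41 and F13A1 A_73_113303 at 1.89 ± 0.87 did not pass (limma adjusted p = 0.326 and 0.0762). F13A1 A_73_113303 passed higher, opposite to the 2 other F13A1 probes, without untreated replicate 2 (2.89, limma adjusted p = 0.00218) and under 3 of 12 alternatives.

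The probiotic pool was next set against day 0, before the supplement was given. Of the member genes, ITGA2B alone passed, and F13A1, THBS1, PPBP and TREML1 did not. That is 1 of 7 probes higher, against 7.02% of probes tested, and 0 lower, against 3.89%, with 1 probe at an unadjusted p under 0.05 in limma. ITGA2B A_73_120486 was at least 1.08-fold higher in the probiotic pool (fitted 2.42 ± 0.60, limma adjusted p = 0.0193). Its probe entered the tests through the probiotic pool alone, with 4 arrays above background there and 0 on day 0. The filter thus favoured a higher value in the probiotic pool, and the call is not independent of it. The call held in 2 of 8 cases with an array left out (adjusted p up to 0.0634), and the value turned to -3.01 on the detrended signal and to -0.33 with normexp. F13A1 A_73_P311426 differed by 0.24 ± 0.30, with a 95% confidence interval from -0.39 to 0.88 and the 2 pools overlapped once scaled. It passed higher under 2 of 13 alternatives, with values over the 13 from -0.47 to 2.89. THBS1 was -0.84 ± 0.41 (interval -1.72 to 0.04, limma adjusted p = 0.201), PPBP -0.06 ± 0.55 and TREML1 -2.71 ± 1.41. TREML1 passed lower without probiotic replicate 1 (-4.25, limma adjusted p = 0.0399) and on the detrended signal (-5.71).

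LPS-treated against probiotic blood asks how blood cells answered the bacterial component, and both pools were scanned on the same day. None of the 7 member probes passed, against 1.71% of probes tested that passed higher and 0.123% lower (1.83% in either direction), and 2 had an unadjusted p under 0.05 in limma. These were TREML1 at 4.51 ± 1.41 (limma adjusted p = 0.196, above background on 4 LPS arrays and 1 probiotic array) and ITGA2B at -1.61 ± 0.60 (limma adjusted p = 0.392). TREML1 passed when probiotic replicate 1, its lone bright probiotic array, was left out (6.05, limma adjusted p = 0.00925). The TREML1 probe entered the tests through the LPS pool alone, and the ITGA2B probe through the probiotic pool alone. The filter thus favoured differences in these directions. Without probiotic replicate 1 the TREML1 fit set the LPS pool against dim arrays only. F13A1 A_73_P311426 differed by -0.17 ± 0.30 (95% interval -0.81 to 0.47), THBS1 by 0.15 ± 0.41 (-0.72 to 1.03) and PPBP by 0.06 ± 0.55 (-1.12 to 1.25). Changes within these intervals were not detectable with 4 arrays per pool.

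In the authors' deposited table each pool has a log2 average for every probe, whose centring is not given in the sources used here. In that table F13A1 A_73_P311426 stood at 2.36 on day 0, 0.25 in the probiotic, -0.30 in the untreated and -0.99 in the LPS pool. THBS1 A_73_P079736 stood there at -4.83, 0.20, 0.63 and -0.95 in the same order. The order for F13A1 A_73_P311426 differs from that of its mean net signals, the order for THBS1 is that of its mean net signals, and neither is the order of the scaled levels. Probiotic minus untreated is 0.55 there for F13A1 A_73_P311426, under 2-fold.

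Some member signals rested on single arrays. Each such spot was set against the other 3 arrays of its pool and against the up to 24 spots around it on the array. PF4 on LPS replicate 3 stood 7.46 above the other LPS arrays on the log2 scale, with the surrounding spots at -0.42. TREML1 stood 6.53 above on probiotic replicate 1 and 4.82 on untreated replicate 2, with surrounding spots at 0.06 and -0.47. F13A1 A_73_101063 and THBS1 A_73_113544 stood 5.56 and 4.24 above on probiotic replicate 1, with surrounding spots at 0.61 and 0.53. In these 5 cases the median of the surroundings moved by 0.61 at most, though 11 of 24 surrounding spots were over 2-fold for F13A1 A_73_101063, 10 for THBS1 A_73_113544, 9 and 6 for TREML1 and 8 for PF4. The F13A1 and THBS1 spots lay on the same array row. THBS1 A_73_113544 on untreated replicate 4 differed from them: it stood 5.48 above, its surroundings 4.61 above with 23 of 24 spots over 2-fold, and the software had flagged the spot as an outlier, so it was left out.

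**Figure D4:**
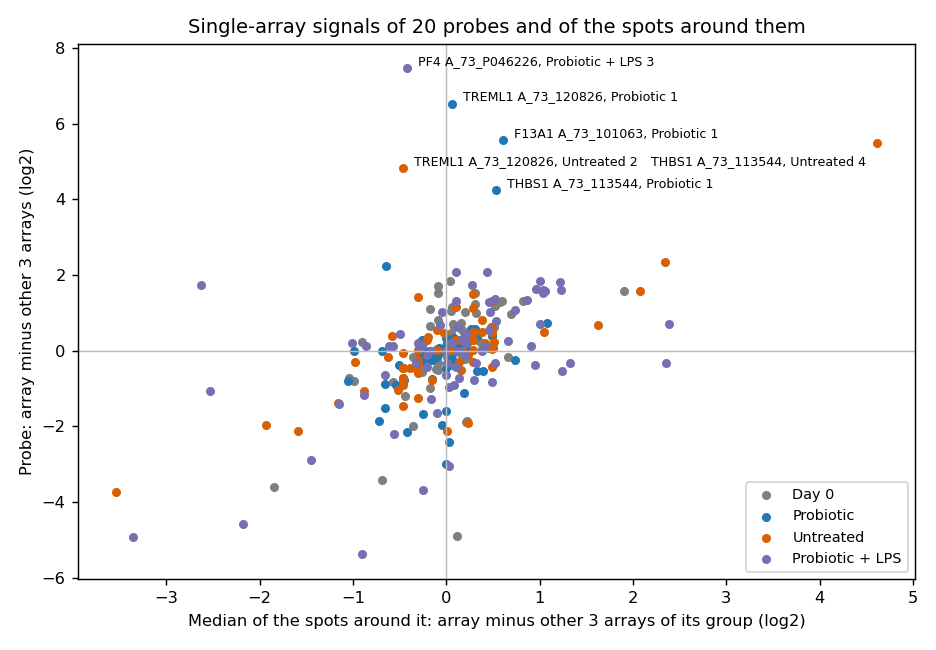
Each of the 20 probes on each array, as log2 signal minus the mean of the other 3 arrays of its pool (vertical axis), against the median of the same quantity for the spots around it (horizontal axis). PF4, TREML1, F13A1 A_73_101063 and THBS1 A_73_113544 each stand over 4 above on single arrays with surroundings near 0, and THBS1 A_73_113544 on untreated replicate 4 stands at 5.48 with surroundings at 4.61.

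Probes whose scaled levels ran most like the members over the 16 arrays were sought among 8864 probes, as a description, since the arrays come from 4 pools and share their brightness. F13A1 A_73_P311426 ran with ATP5A1 and NDUFV2 of mitochondrial energy production and with EIF3I of translation (Pearson r = 0.999 each). On the 4 untreated arrays this F13A1 probe held only surrogates, from -6.45 to -5.53, as other dim probes do. On its 12 bright arrays it ranged from 0.40 to 1.18. Any bright probe with that detection pattern would reach an r near 1 with it, so these values do not show shared regulation. THBS1 A_73_P079736 ran with CYP21A2, a steroid hydroxylase, ACHE, acetylcholinesterase, and MESP2, a developmental transcription factor (r = 0.993, 0.992 and 0.988). F13A1 A_73_113303 ran with SIT1, UBAC2 and RFWD2 (r = 0.991, 0.990 and 0.978). THBS1 A_73_P079736 and F13A1 A_73_P311426 themselves ran opposite, with r = -0.924, and for both the untreated arrays lay apart from the rest.

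Other platelet genes were read from a list of 36, of which 34 had probes and 18 were tested. Several genes that mark platelets most closely were not seen: GP5 of the adhesion complex, the granule selectin SELP, and SPARC, TBXA2R, ITGA2 and ALOX12 had no probe above background on any array. GP1BA was above on 2 arrays, and CLEC1B, a podoplanin receptor, and the platelet tubulin TUBB1 on 1 each. Other genes of the list were widely detected: LY6G6F on 16 arrays, GNG11 on 14, the ADP receptor P2RY12 and the megakaryocyte transcription factor GFI1B on 12 each, and RGS18 on 11. So were ITGB1, TLN1, FERMT3 and RAP1B, which serve integrin signalling in leukocytes too, on 12 to 16 arrays. In probiotic against untreated blood 6 passed higher and 5 lower of 18, against 26.7% and 34.1% of the 7299 named genes tested, with a median of 0.65. This balance turned with the scaling, from 14 higher and 1 lower by the median to 1 higher and 8 lower with cyclic loess.

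Of these platelet genes, the cyclooxygenase PTGS1, which starts thromboxane synthesis, was lower in the probiotic pool at -5.75 ± 0.66, and RAP1B and the integrin activator TLN1 were at least 3.23-fold and 6.81-fold higher (limma adjusted p from 1.24e-06 to 1.09e-05). The thrombin receptor F2RL3 passed at -3.30 ± 0.65, with 1 of 4 arrays above background in each pool. PTGS1 and RAP1B passed the same way under all 7 scaling and background alternatives, TLN1 under 6, and F2RL3 under 4 with its sign turned under 1. Untreated against day 0 gave 3 higher and 3 lower of 18, against 37.7% and 18.2% of named genes, with a median of -0.41. PTGS1 was at least 18.6-fold higher there, GNG11, a G protein subunit, was lower at -4.20 ± 0.82, and TLN1 and RAP1B were at least 4.01-fold and 1.68-fold lower. F2RL3 was the single gene of the list to pass in the other comparisons. Its probe entered the tests through the LPS pool alone, where it was above background on 4 arrays against 2 on day 0 and 1 each in the other pools, so the values below rest largely on surrogates for dim spots. Probiotic minus day 0 was -2.67 ± 0.65 (1 of 18 lower, against 3.43%; 0 higher, against 5.99%, with 2 at an unadjusted p under 0.05 in limma). LPS minus probiotic was 3.57 ± 0.65 (1 of 18 higher, against 1.27%; 0 lower, against 0.123%).

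Clotting, anticoagulant and fibrinolysis genes came from a list of 25, all with probes, of which 11 were tested. In probiotic against untreated blood 4 passed higher and 3 lower, against 26.7% and 34.1% of named genes, with a median of 1.03. The split was 9 and 0 with scaling to the median and 1 and 5 with normexp. TFPI, the inhibitor of the tissue factor pathway, was lower at -4.59 ± 0.85 and TGM2, a relative of factor XIII that also cross-links proteins, at -3.82 ± 0.34 (limma adjusted p = 0.000284 and 3.90e-07). ANXA5, which binds exposed phosphatidylserine, was at least 3.15-fold higher (limma adjusted p = 5.86e-05). TFPI and TGM2 kept their sign under the 7 alternatives and their call under 6, and ANXA5 kept its call under 7. The median of the list was -0.39 with normexp and 4.80 with scaling to the median.

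In untreated blood against day 0, 3 of the 11 passed higher and 1 lower, against 37.7% and 18.2% of named genes. TFPI was higher at 5.07 ± 0.85, with its sign turned under 1 alternative, and TGM2 at 3.82 ± 0.34. ANXA5 was at least 1.67-fold lower, with 3 of 4 day 0 arrays above background, and THBS3 passed higher with its probe dim in both pools. In probiotic blood against day 0, 2 passed higher and 0 lower, against 5.99% and 3.43% of named genes, namely the urokinase PLAU at 2.21 ± 0.55 and its receptor PLAUR at 1.35 ± 0.39 (limma adjusted p = 0.0200 and 0.0393, 4 genes at an unadjusted p under 0.05). Without the 4 detrended arrays neither passed. With LPS, 0 of 11 passed in limma, and 1 had an unadjusted p under 0.05.

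Markers of the blood cells were read in the same way. In probiotic against untreated blood the summed signal of the monocyte and neutrophil lists did not overlap under the main scaling, while that of the red cell and lymphocyte lists did. The sums of the member genes did not overlap either, at 1.69 to 2.39 on the probiotic and 0.71 to 0.94 on the untreated arrays. Nor did those of 10 mostly dim clotting genes made by the liver, at 0.023 to 0.030 and 0.163 to 0.250. Those of the other platelet list and of the clotting, anticoagulant and fibrinolysis list overlapped. How often gene sets at large fail to overlap, or these sums under other scalings, was not examined. The monocyte list's median difference ran from -2.40 with cyclic loess to 5.72 with scaling to the median. The neutrophil list's ran from -0.53 to 6.35 under the same alternatives. Scaled signals were summed over each list, 1 probe per gene, in units of the array's 75th percentile. For 9 monocyte genes, a cell type that makes F13A1, the sum ran from 5.61 to 7.85 on the probiotic arrays and from 0.76 to 4.02 on the untreated arrays, with 2.55 to 6.09 on day 0 and 1.49 to 6.20 with LPS. Of the 6 tested, 4 were higher and 2 lower in probiotic than untreated blood, against 26.7% and 34.1% of named genes. The split was 4 and 0 with scaling to the median and 2 and 4 with cyclic loess. The receptors SIRPA and CSF1R were at least 19.7-fold and 8.66-fold higher and, like F13A1 A_73_P311426, above background on 12 arrays and on 0 untreated arrays. The brightest probes of CXCR2 and S100A12 of neutrophils and of CD3E, LCK and CD79B of lymphocytes had that same pattern. Another S100A12 probe was above background on 15 arrays, untreated ones among them. CD68 passed at -5.27 ± 0.85 with 0 probiotic arrays and 1 untreated array above background, so no bound is given, and CD14 was lower at -3.52 ± 0.49, with its sign turned under 1 of the 7 alternatives (0.25). CD163 was dim on all arrays by every probe.

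For 10 neutrophil genes the sum was 7.85 to 9.02 on the probiotic and 0.86 to 1.69 on the untreated arrays, with 3.20 to 7.72 on day 0 and 1.68 to 7.68 with LPS, and 3 of 7 were higher and 3 lower (4 and 0 with the median, 1 and 3 with cyclic loess). For 8 red cell genes it was 19.8 to 24.9 and 2.01 to 25.6, with 3.21 to 18.9 on day 0 and 5.37 to 20.9 with LPS, and 1 of 4 was higher and 1 lower (3 and 0, 1 and 2). For 8 lymphocyte genes it was 3.59 to 5.09 and 2.72 to 6.63, with 3.02 to 4.45 on day 0 and 3.68 to 5.03 with LPS, and 4 of 8 were higher and 2 lower (6 and 1, 3 and 3). These splits stand against 26.7% of named genes higher and 34.1% lower in probiotic than untreated blood. CXCR1 and CATHL4 of neutrophils and SLC4A1 of red cells were dim on all arrays by every probe. The part of these cell types in the differences of the platelet and clotting genes was not tested.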

How the data were processed

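Whole-blood RNA pools of 4 groups were measured on 16 one-colour bovine arrays, 4 per pool, and 20 probes of 7 genes were described. Per the file headers, the deposited intensity values came from Agilent Feature Extraction 10.10.1.1, which subtracted background and multiplicatively detrended 4 arrays (day 0 replicates 2, 3 and 4, LPS replicate 4). The authors' deposited table gives log2 averages per pool, with centring not given in the sources used here.

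Signal before detrending was used. As no detrending factor column was at hand, the factor was taken from the ratio of the deposited processed to background-subtracted signal, and normexp used median in place of mean intensity. Outlier spots were dropped, spots of a probe averaged, and log2 values scaled to each array's 75th percentile over the 671 probes well above background on all 16 arrays, since under 50% of probes were detected. Probes above background on all 4 arrays of a pool were tested (12197 of 43653), over all 16 arrays, with limma 3.58.1 in R 4.3.3, two-sided, with Benjamini-Hochberg adjustment. The scripts were tested on simulated data. Dim spots carry software surrogate values. Replicate numbers name arrays of a pool and do not pair cows.

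For each list, genes were represented by their brightest probe, and up to 4 genes with the largest difference among those that passed were named per comparison; some list genes are not reported here. For likeness, the 3 probes with the highest Pearson r were named. The members and lists were chosen with earlier results of these data known. Alternatives covered background, scaling, filter, model, left-out arrays and the replicate block; scaling within 7 bands of array rows was added after seeing the data. Gene names came from the deposited table, and RefSeq (ARS-UCD2.0) was used for neighbours only. The array design uses build bosTau6, and probe positions were not used here. Figures were drawn with matplotlib 3.10.9.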

Additional observations from a re-analysis of the deposited data

Results flagged for a closer look

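In 12 of the 32 sets of 4 arrays examined, a single array lay far from the other 3 of its pool by Dixon's criterion. A set is a member probe in a pool, and those with any array above background were examined. Chance gives about 1 in 20 for independent sets. These sets shared the same arrays, and the choice favoured lone bright arrays, so that rate does not apply here. Values are scaled log2 levels. Replicate 4 accounted for 11 of the 12. On day 0, replicate 4 was at -6.65 for F13A1 A_73_113303 (nearest other array -4.94), at -5.52 for F13A1 A_73_P126951 (nearest -2.57), at -5.80 for PPBP A_73_117476 (nearest -4.31) and, in the opposite direction, at -4.32 for PF4 A_73_P046226 (nearest -6.98). On LPS, replicate 4 was at -6.96 for F13A1 A_73_113303 (nearest -4.70), at -5.11 for F13A1 A_73_P126951 (nearest -2.38), at 0.40 for F13A1 A_73_P311426 (nearest 0.72) and at -6.12 for PPBP A_73_117476 (nearest -4.12). It was high at -4.79 for THBS1 A_73_P413916 (nearest -9.02).

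In the probiotic pool, replicate 4 was at -4.17 for F13A1 A_73_113303 (nearest -4.59) and at -5.34 for ITGB3 A_73_P101986 (nearest -8.02), both above the rest. For F13A1 A_73_113303 this held only after scaling, since the net signal of replicate 4, 396, was below the 448 to 472 of the other probiotic arrays. Replicate 1 was at -3.84 for TREML1 A_73_120826 (nearest -9.60). Replicate 4 of day 0, of LPS and of the probiotic pool also had the fewest spots above background in their pools.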

How the results depend on the processing

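F13A1 A_73_P311426 passed in both comparisons with the untreated pool under all 13 alternatives fitted to the arrays and all 8 left-out arrays. In the authors' deposited table its probiotic minus untreated value was 0.55, and that of F13A1 A_73_P126951 was 0.0048, both under 2-fold. Scaled to the median, probiotic minus untreated turned to 2.71 for F13A1 A_73_113303, 2.68 for ITGA2B and 0.30 for THBS1. ITGA2B against day 0 turned to -3.01 (probiotic, detrended signal), -0.33 (probiotic, normexp), -1.93 (untreated, detrended signal) and -0.75 (untreated, the authors' deposited table). In the authors' deposited table THBS1 turned to 5.03 and F13A1 A_73_P311426 to -2.11 for probiotic minus day 0, and THBS1 to -1.15 for LPS minus probiotic. The cause was not tested.

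Counts of all probes that passed also moved. Probiotic against untreated gave 7217 (2927 higher, 4290 lower), 37113 with no filter, 12607 with a filter of 2 arrays, 4452 with 1 probe per gene and 2410 in the authors' deposited table, and 6619 to 7274 with an array left out. Its split of higher and lower was 6093 and 2132 with the 75th percentile over all probes, 8554 and 547 with the median, 6084 and 2311 with quantile normalization, 1197 and 4528 with cyclic loess, and 1464 and 6812 with normexp. Probiotic against day 0 gave 1330, 6547 on the detrended signal, 292 with normexp, 5490 with the median, 15863 with no filter, 2621 with the 2 pools alone, 820 without the detrended arrays, 643 with 1 probe per gene, 8410 in the authors' table and 584 to 1727 with an array left out. LPS against probiotic gave 223, 121 with normexp, 82 with quantile normalization, 572 with no filter, 762 with 2 arrays, 146 with the 2 pools alone, 97 with 1 probe per gene, 8214 in the authors' table and 153 to 238 with an array left out. Untreated against day 0 gave 6852 (4892 higher, 1960 lower), 35216 with no filter, 12013 with 2 arrays, 4079 with 1 probe per gene and 6105 to 7368 with an array left out. Its split was 1729 and 5095 with the 75th percentile over all probes, 1422 and 3958 with the median and 2224 and 4751 with quantile normalization.

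In none of the 4 comparisons did all same-numbered arrays deviate together (correlations from -0.18 to 0.27). Between day 0 and LPS, which were not compared, all 4 correlations were over 0.1 (0.17 to 0.61). With the replicate block, 7405, 1276, 244 and 7017 probes passed in the 4 comparisons in the order probiotic against untreated, probiotic against day 0, LPS against probiotic and untreated against day 0, and 4, 1, 0 and 4 of the 7 member probes. The slide as a block was not run, because each group lay on its own slide. Signal over background limits PPBP, for which no bound can be given, and ITGA2B, whose bound against day 0 was 1.08-fold.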

Other observations

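Clotting factors made by the liver were seen on few arrays. None of the 26 probes of 10 such genes was well above background on all 4 arrays of any pool, and F2 (prothrombin), F9, PLG (plasminogen), PROC (protein C) and KLKB1 had no probe above background on any array. A probe of SERPINC1 (antithrombin) was above on 5 arrays, 3 probiotic and 2 LPS, and one of FGB (a fibrinogen chain) on 4, 3 probiotic and 1 LPS. FGG, FGA and KNG1 had probes above on 1 or 2 arrays. Of the 25 clotting, anticoagulant and fibrinolysis genes, tissue factor (F3), F12, PROS1 (protein S), PLAT and THBS4 also had none.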
